A study of Homo sapiens with 6 samples.

Results

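The stretch of human 18S ribosomal RNA described here runs from position 1600 to the 3′ end at position 1869, and holds much of the small subunit's decoding site. It was chosen by position alone, with no measured value. Positions count from 1 in the deposited 18S sequence, and no genome build applies, since ribosomal DNA occurs in many near-identical copies whose reads cannot be told apart. Of its 270 positions, 269 had at least 100 crossing reads in both libraries of every pair, out of 6939 positions of 18S and 28S rRNA in all. Position 1869, the last base, had 0 crossing reads in each library. Just inside the limit, position 1868 had between 1301 and 4768 crossing reads, and position 1867 had between 202315 and 1121396.

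Total RNA freed of short RNAs, from HEK293T/17 cells, a clone of the human embryonic kidney line HEK293T, was fragmented and then treated with CMC or mock-treated. CMC, a carbodiimide, attaches a large adduct to uridine, guanosine and pseudouridine (Ψ), and the adduct on Ψ is the most stable. Each RNA was copied in 3 ways, by HIV reverse transcriptase (HIV RT) in magnesium, by SuperScript III in manganese, or by SuperScript III in magnesium, which gave 6 libraries in 6 groups of 1 library. The groups were therefore HIV RT with magnesium and CMC, HIV RT with magnesium and mock, SuperScript III with manganese and CMC, SuperScript III with manganese and mock, SuperScript III with magnesium and CMC, and SuperScript III with magnesium and mock. All shared the cell line, size selection and fragmentation, and no replicate shows how much any value would vary between cultures or treatments. The tables hold ribosomal RNA alone, so the identity of the cells could not be checked.

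In the folded ribosome this stretch forms part of the head, the neck, the long helix that carries the decoding site and the final hairpin. The decoding adenosines A1824 and A1825 inspect the pairing of codon and anticodon in the A site, and C1701 lies at the P site. Box H/ACA small nucleolar RNAs guide the enzyme dyskerin to turn uridines into Ψ, and box C/D small nucleolar RNAs guide the ribose methylations. Stand-alone enzymes add the other marks. BUD23 makes m7G1639, METTL5 makes m6A1832, NAT10 makes ac4C1842, and DIMT1 puts 2 methyl groups on each of A1850 and A1851 in the loop of the final hairpin. Dimethylation of the adenine amino group blocks the base's pairing face, whereas m7G, m6A and ac4C still pair.

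The 12 listed modified positions are Ψ1625, Ψ1643 and Ψ1692, the 5 base modifications m7G1639, m6A1832, ac4C1842, m6,6A1850 and m6,6A1851, and the ribose methylations Um1668, Am1678, Cm1703 and Um1804. Their windows are shown because each result below turns on a base and its direct neighbours. They are the deposited reference sequence, 5′ to 3′, with T for U, and capitals mark the modified bases.
Ψ1625, positions 1613 to 1637: gattgcaattatTccccatgaacga
m7G1639 and Ψ1643, positions 1629 to 1653: catgaacgagGaatTcccagtaagt
Ψ1692 and Cm1703, positions 1680 to 1705: gtccctgcccttTgtacacaccgCcc
m6A1832, ac4C1842, m6,6A1850 and m6,6A1851, positions 1822 to 1869: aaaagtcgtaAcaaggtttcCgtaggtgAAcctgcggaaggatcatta
Each of the 3 Ψ is preceded by a U on its 5′ side. Ψ1625 and Ψ1643 are followed by C and Ψ1692 by G.

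At each position the mutation share gives crossing reads that differ from the reference base, in percent. The stop share gives the stops as a percent of stops and crossing reads together, where a stop is booked at the template base that was not copied. Differences are CMC minus mock, in percentage points (points), and where a share is set against another the CMC library comes first and the mock library second. A position was said to rise or fall only where the pair of libraries differed by at least 5 points and by a two-sided Fisher's exact test with a Benjamini-Hochberg adjusted p under 0.05 over all tested positions of both rRNAs. This test compares 2 libraries and not 2 treatments. The libraries held between 21206954 and 47002169 stops over both rRNAs, and the median number of crossing reads in the stretch lay between 105854 and 311180. At listed positions the fewest reads behind a share were 45079. The widest 95% Wilson interval there reached 0.439 points either side for mutation shares and 0.261 for stop shares. Such intervals cover counting error at most, and reads amplified by PCR and not marked by molecular identifiers do not each stand for a molecule.

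Mutations marked few positions, and all of them were uridines or pseudouridines at or within 2 nt of the 3 listed Ψ. With HIV RT, 4 of the 269 positions (1.49%) rose, against 1.05% of all 6935 tested positions. These were Ψ1625, U1642, Ψ1643 and Ψ1692. With SuperScript III in manganese, 5 positions (1.86%) rose, the same 4 and U1690, against 1.29% of 6924. With SuperScript III in magnesium, 0 rose, against 0.159% of 6912. There the largest difference was 4.26 points at U1868, where reads were fewest, and 163 positions were higher with CMC at an unadjusted Fisher p under 0.05. That count was 142 with HIV RT and 211 with SuperScript III in manganese. No position of the stretch fell in mutation by this rule, against 0.101% of all positions for HIV RT, 0.332% for SuperScript III in manganese and 0.0868% in magnesium. At an unadjusted p under 0.05 there were 94, 38 and 20 lower positions, and the largest differences downwards were of 2.66, 1.75 and 0.37 points. Counts at an unadjusted p were not made over both rRNAs, so they have no background share. The shares of 1.49% and 1.86% are near the background.

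**Figure D1:**
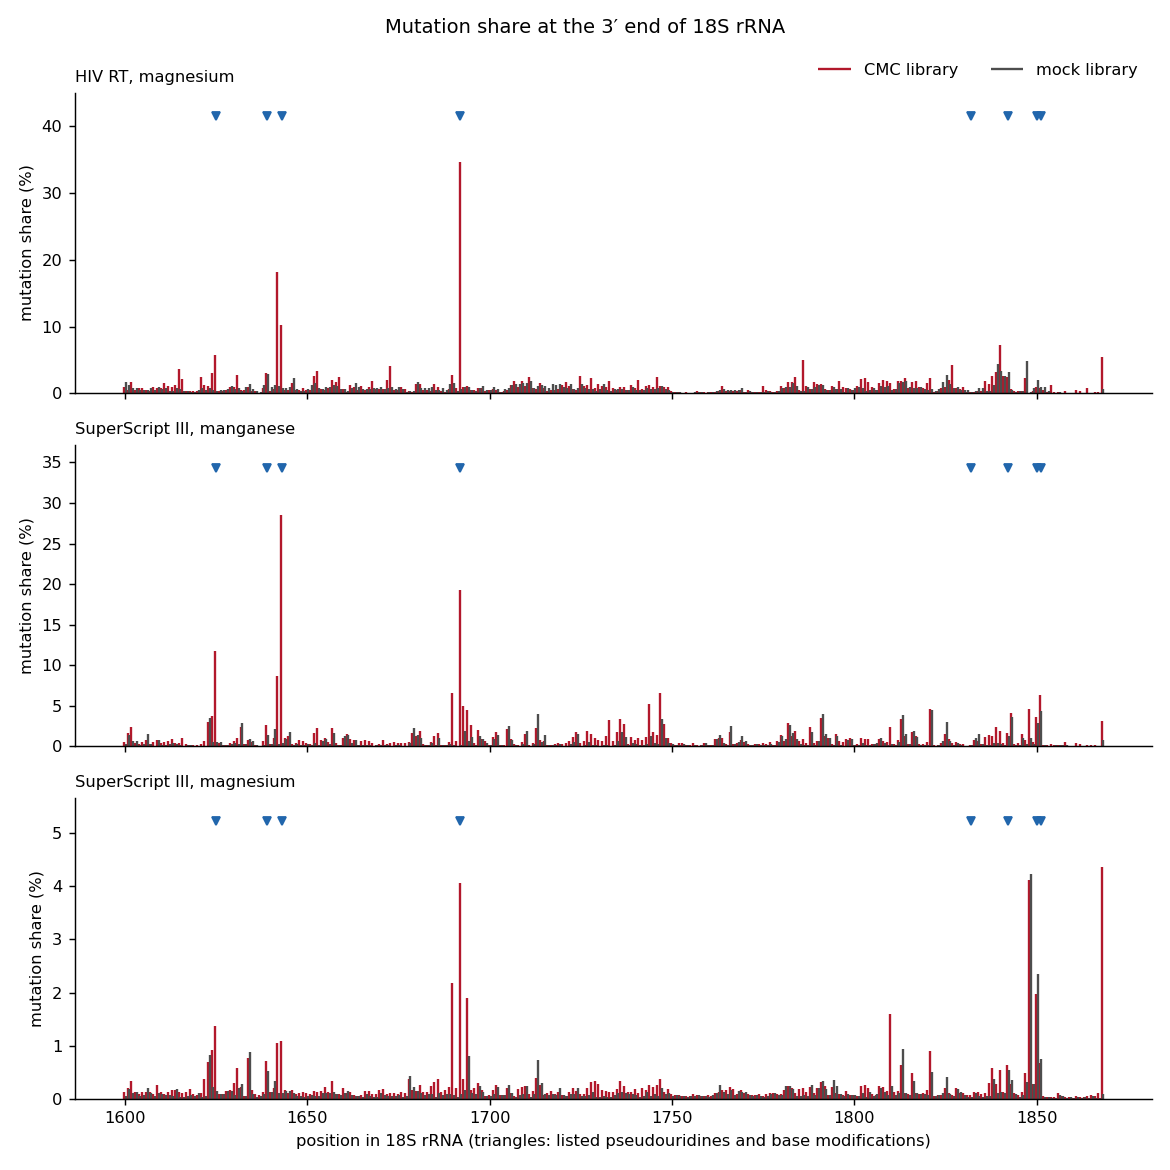
Mutation share in percent (y axis, a separate scale in each panel) at each position from 1600 to 1868 of 18S rRNA (x axis) in the CMC library (red) and the mock library (grey) of each reverse transcription condition; triangles mark the listed Ψ and base modifications. The red bars at Ψ1692 reach 34.6% with HIV RT, 19.3% with SuperScript III in manganese and 4.07% with SuperScript III in magnesium, and the grey bars there stay at or under 0.711%.

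Ψ1692, in the strand that forms the neck, had the highest mutation share of the stretch with HIV RT and CMC. It was 34.6% (95% Wilson interval 34.2 to 35.0) against 0.711% (0.676 to 0.747) in the mock library. With SuperScript III in manganese it was 19.3% (19.01 to 19.61) against 0.125% (0.112 to 0.138). With magnesium it was 4.07% (3.89 to 4.25) against 0.0864% (0.0748 to 0.0998). The difference ranked 1, 2 and 2 among the 60 U of the stretch in these 3 conditions. The 3 CMC libraries thus lay apart from the 3 mock libraries, and from each other, by far more than counting error, although the difference in magnesium, 3.98 points, did not reach the required size.

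Ψ1643, next to U1642 on its 5′ side, gave the highest share in manganese. Its mutation share was 10.2% against 0.772% with HIV RT, 28.6% against 0.387% with SuperScript III in manganese, and 1.10% against 0.110% with SuperScript III in magnesium. Ψ1625 was lower, with 5.74% against 0.396%, 11.8% against 0.498%, and 1.38% against 0.145%. The order of the 3 sites was therefore not the same in the CMC libraries. It was Ψ1692, Ψ1643 and Ψ1625 with HIV RT, Ψ1643, Ψ1692 and Ψ1625 in manganese, and Ψ1692, Ψ1625 and Ψ1643 in magnesium, and in each order the Wilson intervals of neighbouring sites did not overlap.

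The wrong base at the 3 Ψ was mostly C. Among mismatched reads of the CMC libraries, Ψ1625 was read as C in 90.5% with HIV RT, 97.8% in manganese and 96.2% in magnesium. The same share was 90.9%, 99.3% and 95.2% at Ψ1643 and 97.3%, 91.3% and 87.0% at Ψ1692. In the mock libraries C was also the leading wrong base at Ψ1625, but at 58.9%, 74.8% and 80.2%. It led there too at Ψ1643, with 56.4%, 89.7% and 75.6%, and at Ψ1692, with 60.7%, 52.2% and 65.2%. Unlisted U1694 was read as C in 56.8%, 98.0% and 98.0% of its mismatched mock reads.

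U1642 behaved otherwise. It lies between A1641 and Ψ1643, and its mutation share was 18.1% against 1.14% with HIV RT, which is above that of Ψ1643 itself. It was 8.66% against 0.304% in manganese and 1.04% against 0.117% in magnesium. Its mismatched reads in the CMC library held A in 95.3% with HIV RT and 89.3% in magnesium. With manganese they held C in 57.2% and A in 42.1%. U1624, the 5′ neighbour of Ψ1625, had smaller shares of 3.01% against 0.532%, 3.74% against 0.453% and 0.916% against 0.230%, and did not pass. U1691, the 5′ neighbour of Ψ1692, stayed at 0.798% or lower in all 6 libraries. The 5′ neighbour thus passed beside Ψ1643, and stayed under the required size beside Ψ1625 and Ψ1692.

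Near Ψ1692 further high mutation shares lay 1 or 2 nt away, with the larger differences in the SuperScript III pairs. G1693, its 3′ neighbour, had 4.95% against 1.85% in manganese, 0.369% against 0.161% in magnesium and 0.999% against 0.993% with HIV RT, and was read mostly as T in manganese, in 78.0% of mismatched reads with CMC and 82.96% without. U1690 reached 6.62% against 0.121% in manganese, a rise, and 2.19% against 0.0703% in magnesium. It had 2.69% against 1.64% with HIV RT. Its wrong base in the manganese CMC library was C in 98.1% of mismatched reads. U1694 had 4.47% against 0.675% in manganese, 1.90% against 0.8002% in magnesium and 1.08% against 0.931% with HIV RT, with C in 96.9% of its mismatched reads after manganese and CMC. Whether the enzymes differ at these 3 positions was not tested.

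**Figure D2:**
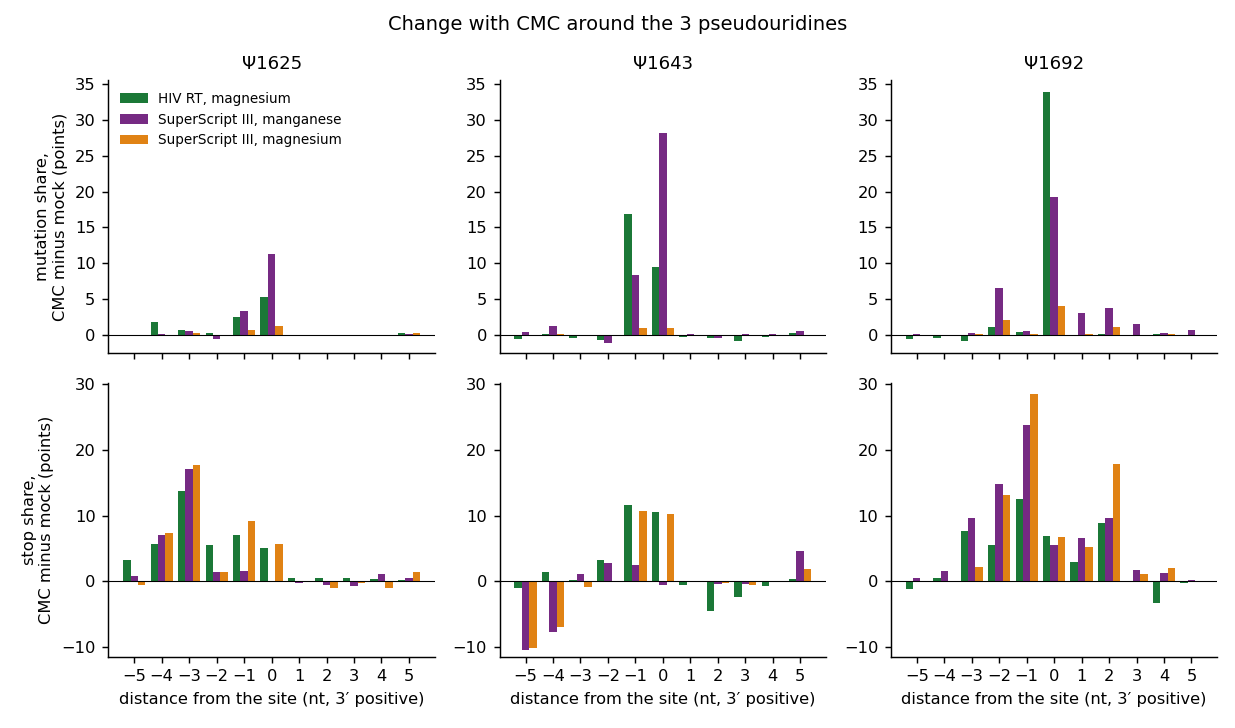
Difference between the CMC and the mock library, in percentage points, in mutation share (top row) and stop share (bottom row) from 5 nt on the 5′ side (negative distance) to 5 nt on the 3′ side of Ψ1625, Ψ1643 and Ψ1692, as bars for HIV RT (green), SuperScript III in manganese (purple) and SuperScript III in magnesium (orange), 1 library pair each. Mutation bars are highest at distance 0, except with HIV RT beside Ψ1643, where U1642 is higher. Stop bars are highest 1 to 3 nt on the 5′ side of Ψ1625 and Ψ1692. The lowest stop bars near Ψ1643 are those of SuperScript III at G1638 and m7G1639.

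Stops divided the conditions in another way. At Ψ1643 the stop share was 11.9% against 1.38% with HIV RT and 12.2% against 1.98% with SuperScript III in magnesium, both rises. With manganese it was 1.81% against 2.41%, in the opposite direction and under the required size. At Ψ1625 it was 5.56% against 0.545%, 0.483% against 0.340% in manganese, and 6.10% against 0.489% in magnesium. So in manganese Ψ1625 and Ψ1643 showed mutations and hardly any added stops, with the same enzyme in magnesium they showed stops and few mutations, and with HIV RT they showed both. Ψ1692 rose in stops in all 3 conditions, with 9.82% against 2.96%, 6.83% against 1.25% and 8.01% against 1.29%.

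At each of the 3 Ψ the stop difference was smaller than at the U on its 5′ side, in all 3 conditions. At U1624, beside Ψ1625, the stop share was 7.52% against 0.443% with HIV RT and 9.80% against 0.641% in magnesium, both rises. With manganese it was 1.80% against 0.262%. The stop share at U1691 was 14.2% against 1.72% with HIV RT, 26.1% against 2.29% in manganese and 30.4% against 1.93% in magnesium. The last 2 differences were the largest rises of the whole stretch in their conditions. At U1622, which lies 3 nt from Ψ1625 and precedes A, the share was 16.9% against 3.23%, 20.0% against 2.83% and 23.2% against 5.46%. At U1642 it was 12.9% against 1.35% with HIV RT, 3.68% against 1.15% in manganese and 11.9% against 1.21% in magnesium. Whether these stops belong to the nearby Ψ or to an adduct on the U itself was not tested.

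Over the whole stretch stops rose at many positions and mostly at U. With HIV RT 30 of 269 positions (11.2%) rose, against 10.1% of all positions, and 23 of the 30 were U. With SuperScript III in manganese 27 (10%) rose, against 8.38%, 17 of them U. With SuperScript III in magnesium 31 (11.5%) rose, against 9.22%, 26 of them U. The shares are close to those over both rRNAs, while U makes up 60 of the 270 bases. Stops fell at 6 positions (2.23%), 3 (1.12%) and 3 (1.12%), against 3.66%, 1.98% and 1.84%, and none of these was a U. The 269 include the 17 positions from 1852 on, which held 0 stops and so could not rise or fall. This lowers the stop shares of the stretch.

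**Figure D3:**
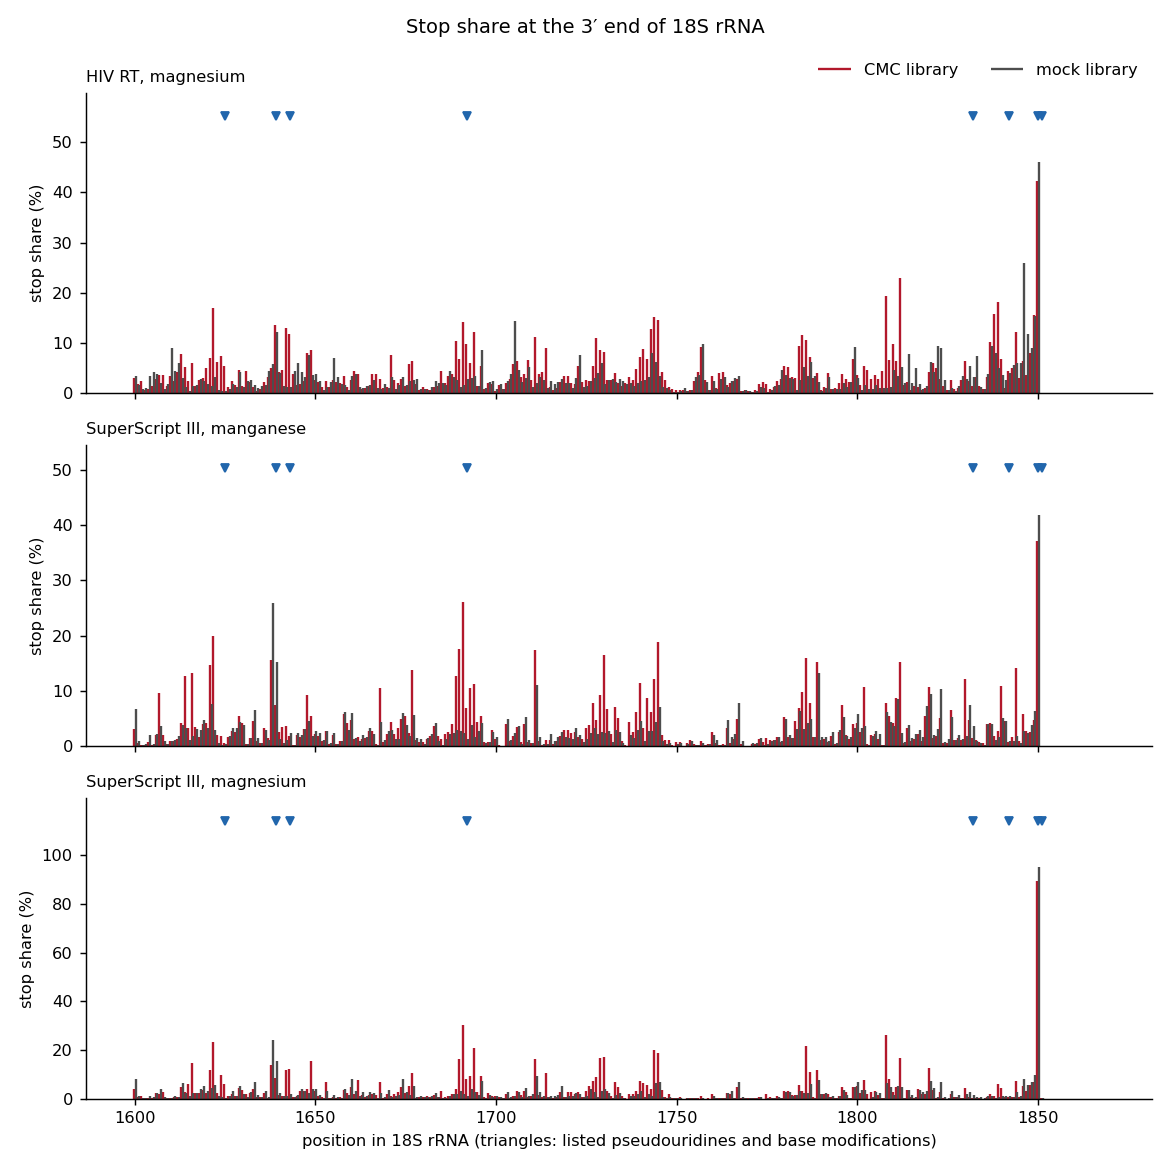
Stop share in percent (y axis, a separate scale in each panel) at each position from 1600 to 1868 of 18S rRNA (x axis) in the CMC library (red) and the mock library (grey) of each condition; triangles mark the listed Ψ and base modifications. The tallest bars stand at m6,6A1850 in all 6 libraries, between 37.1% and 94.98%, and the tallest red bar elsewhere is U1691 with SuperScript III (26.1% and 30.4%).

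Rises at 12 positions were shared by all 3 conditions, of 47 in any. They were U1621, U1622, U1690, U1691, Ψ1692, U1694, U1711, U1730, G1744, A1745, U1786 and U1812, so 10 were U or Ψ and 11 were outside the lists. SuperScript III in manganese and in magnesium shared 16 rises, HIV RT and manganese 15, and HIV RT and magnesium 22. These overlaps were not counted over the other positions of both rRNAs, so they cannot be called particular to the stretch. The windows of the positions outside the lists that lie away from the 3 Ψ are shown to let their neighbours be compared, with the position itself in capitals.
U1711, positions 1706 to 1716: gtcgcTactac
U1730, positions 1725 to 1735: tggttTagtga
G1744, positions 1739 to 1749: cctcgGatcgg
A1745, positions 1740 to 1750: ctcggAtcggc
U1786, positions 1781 to 1791: agcgcTgagaa
U1812, positions 1807 to 1817: ctatcTagagg
In 3 of the 4 U windows the U is followed by A, and G1744 and A1745 are the bases just before U1746.

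U1812 had the highest CMC stop share at a U with HIV RT, 23.0% against 5.33% in the mock library. It had 15.2% against 2.36% in manganese and 16.9% against 4.80% in magnesium. U1730 had 8.22% against 1.88%, 16.4% against 2.39% and 17.3% against 3.93%. U1786, which precedes G, had 10.6% against 3.48%, 16.0% against 4.17% and 21.6% against 2.56%. It also had a mutation share of 5.01% against 0.392% with HIV RT, with C in 87.6% of mismatched reads. At these 3 U each CMC library lay above all 3 mock libraries.

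U1711 was already a strong stop without CMC when SuperScript III was used. Its mock share was 2.18% with HIV RT, 11.1% in manganese and 9.34% in magnesium, and the CMC shares were 11.2%, 17.3% and 16.3%. U1808 rose with HIV RT, 19.3% against 1.18%, the largest stop rise in that condition, and in magnesium, 26.2% against 6.52%. With manganese it had 7.74% against 6.22%. U1839, which is followed by U1840 in the run of U before ac4C1842, rose with HIV RT, 18.1% against 5.16%, and in magnesium, 6.26% against 0.775%, and had 2.75% against 1.66% in manganese.

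The 2 shared rises that are not U sit side by side. G1744 had 15.3% against 6.22%, 12.2% against 4.28% and 19.9% against 6.68%, and A1745 had 14.7% against 3.51%, 18.8% against 7.09% and 18.8% against 6.98%. U1746, on their 3′ side, had 4.26% against 1.19%, 1.97% against 0.9851% and 3.43% against 0.638%, none past the required size. C1689, 3 nt before Ψ1692, rose with HIV RT, 10.4% against 2.77%, and in manganese, 12.6% against 2.93%, and had 4.05% against 1.92% in magnesium. G1693, just 3′ of Ψ1692, rose in manganese, 10.5% against 3.85%, and in magnesium, 9.35% against 4.15%. A1623, on the 5′ side of Ψ1625, rose with HIV RT, 6.22% against 0.617%. It had 2.02% against 0.515% in manganese and 2.34% against 0.941% in magnesium. C1645, on the 3′ side of Ψ1643, had 1.67% against 6.15% with HIV RT, under the required size. It had 2.02% against 2.43% in manganese and 1.34% against 1.56% in magnesium.

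The unlisted U differed by the base on their 3′ side, and the largest median stop differences were at U before A. The median difference over the 13 U before A was 6.33 points with HIV RT, 8.00 in manganese and 10.1 in magnesium. Over the 15 U before U it was 5.53, 1.54 and 5.48 points. Over the 12 U before G it was 1.59, 1.10 and 1.94 points, and over the 11 U before C it was 1.54, 0.539 and 0.873 points. Of the 51 unlisted U with stops 28 rose in at least 1 condition, and 22 of those preceded A or U, with 12 of the 13 U before A among them. The other 23 rose in none. The shares of unlisted U that rose, 39.2%, 29.4% and 45.1% in the 3 conditions, were near those of the U in the rest of 18S, 37.8%, 28.2% and 42.8%, and in 28S, 37.6%, 25.3% and 44.3%. Modified U were left in for the rest of 18S and for 28S, also in the counts and medians that follow. The order by next base was also much the same there. Of the 13 U before A in the stretch, 9, 8 and 10 rose in the 3 conditions. Of the 67 in the rest of 18S, 47, 39 and 51 rose. The counts in 28S were 88 of 107, 69 of 107 and 92 of 106. Counts over any condition were not made outside the stretch. U before A had medians of 8.69, 6.61 and 10.7 points in the rest of 18S and 10.4, 9.05 and 14.9 points in 28S, and U before C had 1.59, 0.193 and 1.85 points and 1.78, 0.259 and 2.35 points. Positions are not replicates, so no test is given.

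**Figure D4:**
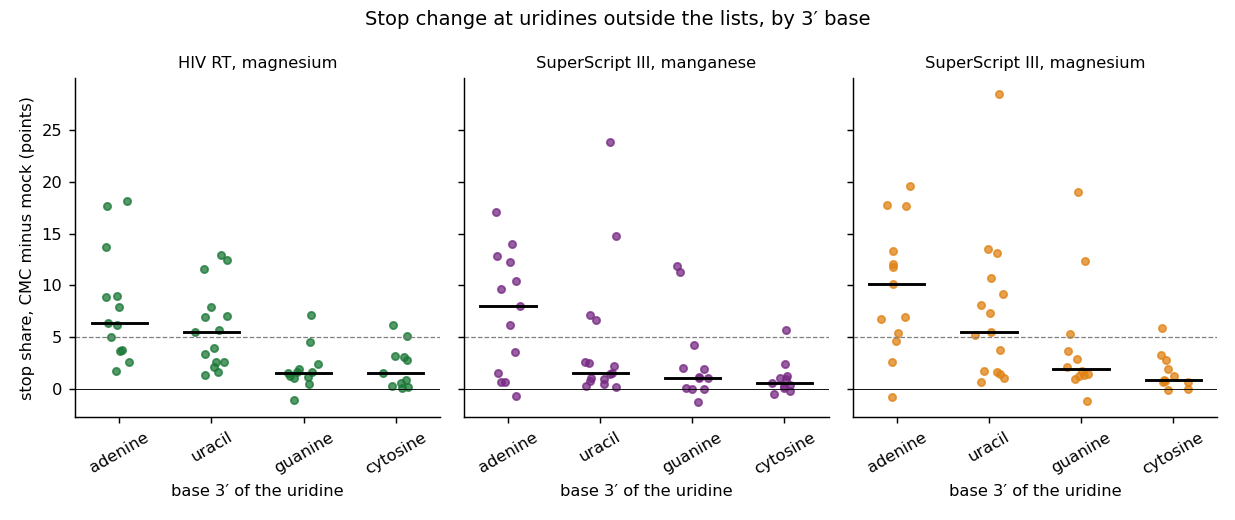
Difference in stop share between the CMC and the mock library, in percentage points (y axis), at the 51 U outside the lists, grouped by the base on their 3′ side (x axis), in each of the 3 conditions; each point is 1 position, black bars are medians, and the dashed line marks 5 points. The adenine group has the highest median in every panel (6.33, 8.00 and 10.1 points) and the cytosine group the lowest (1.54, 0.539 and 0.873 points).

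Unlisted U of the stretch were set beside those of the rest of 18S, with no test. Their median mutation difference, over 55 U, was 0.982 points with HIV RT, 0.509 in manganese and 0.0931 in magnesium. Over the U of the rest of 18S at positions before 1600, where modified U were left in, it was 0.870, 0.714 and 0.119 points. The median stop difference was 3.17, 1.40 and 3.65 points over the 51 U of the stretch and 3.28, 1.65 and 3.87 points over the rest of 18S. The other bases changed less. The median stop difference at unlisted A, C and G of the stretch lay between -0.45 and 0.11 points in the 3 conditions. G, which CMC can also modify, had a median mutation difference of 0.191 points with HIV RT, 0.222 in manganese and 0.0329 in magnesium.

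m7G1639 stood out among guanosines without CMC, in mutations with HIV RT and in magnesium and in stops in all 3 conditions. Its mutation share in the mock libraries was 2.95% with HIV RT, 1.35% in manganese and 0.520% in magnesium, rank 2, 13 and 1 among the 82 G. The CMC libraries had 3.04%, 2.56% and 0.718%, and the HIV RT pair differed by 0.0901 points, with a 95% Newcombe interval of -0.038 to 0.221. The wrong base in the mock libraries was T in 63.0% of mismatched reads with HIV RT, and A in 61.5% in manganese and 62.0% in magnesium. Stops there were frequent in all mock libraries, at 12.3%, 15.1% and 15.5%, rank 3, 2 and 2 among the 77 G up to position 1851. G1638, on its 5′ side, had 5.94% with HIV RT, 25.9% in manganese and 24.0% in magnesium, the highest mock stop shares outside the lists in both SuperScript III libraries.

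These stops fell with CMC in both SuperScript III pairs. G1638 fell to 15.5% in manganese and 13.9% in magnesium, and m7G1639 fell to 7.39% and 8.64%. With HIV RT the CMC shares were 4.97% at G1638 and 13.7% at m7G1639. Position 1638 was the largest fall of the stretch in both SuperScript III conditions. In the CMC libraries Ψ1643 and U1642, which the enzyme meets first, had mutation shares of 28.6% and 8.66% in manganese. In magnesium, where the falls were of like size, these shares were 1.10% and 1.04%, and the stop shares there were 12.2% and 11.9%. Their part in the falls was not tested.

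ac4C1842, where it was misread, was read mostly as T. Its mock mutation share was 3.19% with HIV RT, the highest of the 67 C, 1.25% in manganese, rank 9, and 0.542% in magnesium, rank 2. T made up 76.5%, 89.7% and 82.1% of those mismatched reads. It also led in the mock libraries at C outside the lists, with 67.2%, 94.8% and 73.2% at C1701 and 58.6%, 90.4% and 71.4% at C1705. The mutation shares of ac4C1842 in the CMC libraries were 2.42%, 1.61% and 0.640%, and neither mutations nor stops passed there. U1839 and U1840, just before it, had mock shares of 4.38% and 3.42% with HIV RT, so ac4C1842 was not alone in that library.

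m6A1832 had low shares. Its mutation share was 0.170% against 0.275% with HIV RT, 0.195% against 0.156% in manganese and 0.0657% against 0.0331% in magnesium. Stop shares were lower with CMC, at 1.53% against 3.36%, 1.49% against 3.70% and 0.378% against 1.38%, all under the required size. U1830, 2 nt on its 5′ side, rose in stops in manganese, 12.2% against 1.76%, and had 6.53% against 2.83% with HIV RT and 4.58% against 1.95% in magnesium.

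The dimethyladenosines were the strongest barrier of the stretch, with or without CMC. The stop share at m6,6A1850 in the mock libraries was 46.0% with HIV RT (45.9 to 46.1), 41.9% in manganese (41.7 to 42.0) and 94.98% in magnesium (94.93 to 95.02), the highest of all A in each. The CMC libraries had 42.3%, 37.1% and 89.4%, and the magnesium pair fell by the rule. The count of reads crossing position 1849 was 45.8% of the count at position 1852 with HIV RT, 54.8% in manganese and 4.68% in magnesium in the mock libraries. In the CMC libraries the ratio was 49.2%, 61.0% and 9.98%. It is a ratio of 2 counts and not a share, because reads that never crossed position 1852 can enter the first count. In the magnesium CMC library, for example, the count grew from 51787 at m6,6A1850 to 83291 at ac4C1842.

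**Figure D5:**
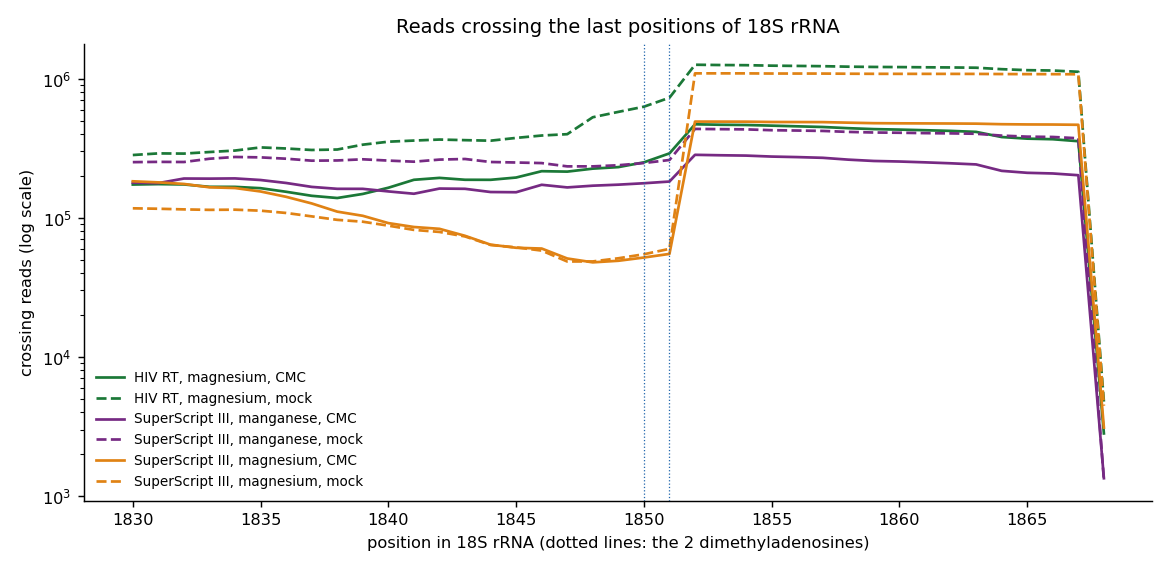
Reads that crossed each of the last positions of 18S rRNA (y axis, log scale) from position 1830 to position 1868 (x axis) in the CMC (solid) and mock (dashed) library of HIV RT (green), SuperScript III in manganese (purple) and SuperScript III in magnesium (orange); dotted lines mark m6,6A1850 and m6,6A1851. Between positions 1852 and 1851 the magnesium mock library drops from 1092723 to 59767 reads and the manganese mock library from 435554 to 260317.

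The stops of this pair were seen at 1850 and hardly at 1851, where the stop share was at most 0.332%. The enzyme meets 1851 first. The last position with a stop was 1851 in all 6 libraries, and the 17 positions from 1852 on held 0 stops. A read that runs to the 3′ end and stops at 1851 is 18 nt long, and one that stops at 1850 is 19 nt long. Few reads ran that far. Between 1301 and 4768 reads per library crossed position 1868, against between 202315 and 1121396 at position 1867. Crossing counts leave out a read's outermost base, so most reads that crossed 1867 ended at 1868. With the same stop, such a read is shorter by the last base of the rRNA. Whether stops at 1851 went uncounted for their short reads was not tested, and the true passage past the pair cannot be given.

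Where the pair was passed, mutations were most frequent in manganese. The mutation share at m6,6A1851 was 4.34% in the manganese mock library, the highest of all A, and 6.26% with CMC, and T made up 87.4% and 89.2% of the mismatched reads. It was 0.820% against 0.907% for HIV RT, and 0.667% against 0.748% in magnesium. At m6,6A1850 the mock shares were 1.98% with HIV RT, 2.80% in manganese and 2.34% in magnesium. G was the leading wrong base in manganese, at 57.4%, while with HIV RT C and G had 38.1% and 35.0%.

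The bases on the 5′ side of the pair, copied right after it, had high shares at different positions in the 3 conditions. U1848 had a mutation share of 4.24% in the magnesium mock library, of which 94.6% were read as G, and 4.13% with CMC. With manganese it had 0.963% in the mock and 4.53% in the CMC library, and with HIV RT 0.155% and 0.142%. With HIV RT the high share lay at G1847, with 4.92% in the mock and 2.26% in the CMC library, and 96.9% of the former were read as A. HIV RT also stopped there without CMC, at 26.0% on G1846, 11.8% on G1847 and 15.5% on G1849. G1846 fell to 6.51% and G1847 to 3.62% with CMC, and G1849 had 15.7%. The fall at G1846 was the largest of the stretch. With SuperScript III the mock stop shares at G1846 were 2.83% and 7.98%.

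The ribose methylations were quiet by comparison. Um1668 rose in stops in manganese, 10.4% against 4.31%, and had 2.93% against 0.826% with HIV RT and 6.87% against 2.47% in magnesium. Am1678, Cm1703 and Um1804 passed in no condition for either measure. Their stop shares in manganese were 1.16% against 1.46%, 3.94% against 4.82% and 2.02% against 1.90%. Um1804 had a mutation share of 1.71% against 0.540% with HIV RT.

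The decoding bases, which carry none of the listed marks, passed in no comparison. A1825 had mutation shares of 0.924% against 2.75% with HIV RT, 1.44% against 3.03% in manganese and 0.198% against 0.417% in magnesium, so each CMC library lay below its mock library. A1824 had 0.816% against 1.72%, 0.414% against 0.584% and 0.0770% against 0.108%. C1701 had 0.666% against 0.966%, 1.09% against 0.858% and 0.168% against 0.0957%. A1823, just before them, fell in stops with HIV RT, from 9.10% to 2.89%, and in manganese, from 10.4% to 5.04%, and had 6.96% in the mock and 2.66% in the CMC library in magnesium.

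Some unlisted positions were misread as often as the marked ones without CMC. With manganese U1821, C1713 and A1791 had mock mutation shares of 4.47%, 4.03% and 3.96%. U1821 was read as A in 99.2% of its mismatched reads, C1713 as T in 89.0% and A1791 as T in 90.5%. The CMC library had 4.62%, 2.28% and 3.45% there, so the same misreadings were seen in both. With magnesium A1813 and A1634 followed U1848 at 0.945% and 0.883%. Stops without CMC were also high at C1705 with HIV RT, 14.4%, which fell to 5.81%, and at G1789 in manganese, 15.2% against 13.3%. The last readable base, U1868, had a mutation share of 5.44% against 0.671% with HIV RT, 3.06% against 0.769% in manganese and 4.35% against 0.0898% in magnesium. These rest on 153, 41 and 135 mismatched reads in the CMC libraries and 32, 10 and 4 in the mock libraries.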

How the data were processed

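RNA of 1 cell line was sequenced in 6 libraries after fragmentation, CMC or mock treatment, end repair, 3′ adapter ligation, reverse transcription, circularisation and PCR, per the labels' protocols. The labels name no alkaline step after CMC and no molecular identifiers. Per the submitters' processing notes, Trimmomatic 0.32 and Bowtie 1.0 were used. For their settings, the source of the reference and the counting step, the entry is: not given in the sources used here. The HIV RT tables carry another file name pattern, and whether they were processed differently is not given.

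Per the file headers, the deposited tables hold for each position the count of crossing reads, the counts of A, C, G and T, and a stop value, a whole number used as the stop count. The mismatch rate and stop frequency that the authors deposited as a fraction were recomputed from these within 1e-09. Reads with no base (at most 0.00205% of crossing reads) were not counted as mismatches. The outermost base of a read is not in the crossing counts. No other normalization was applied.

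Shares have Wilson and differences Newcombe intervals (95%). Pairs of libraries were compared by a two-sided Fisher's exact test (SciPy 1.17.1), with Benjamini-Hochberg adjustment over all positions of 18S and 28S that 100 or more reads crossed in both libraries, and called at an adjusted p under 0.05 with 5 points or more. The calls were tested on simulated counts that held counting error alone. Such counts have no variation between libraries and no PCR copies, so they could not show how the calls behave under either. Positions within 3 nt of a listed Ψ or base modification were considered where a share exceeded 5%, and not every one is described. So were all 12 listed and the 3 decoding positions, per condition and measure the 4 largest rises and 3 largest falls outside the lists, the rises shared by all conditions, the 3 highest shares of each mock library outside the lists, and the limit of coverage. U1746 was added after its values were seen. The stretch was set by position and not by a measured value, yet it and the lists were chosen with earlier results of these data known. Other sizes of difference, coverage minimums, adjustments, stop placements and share definitions were tried. Sequences are those of the deposited tables.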

Additional observations from a re-analysis of the deposited data

How the results depend on the processing

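No paired analysis within a condition was possible because each group holds 1 library, so replicate numbers pair nothing there, and no replicate could be left out. A fit of CMC against mock with the 3 conditions as blocks, which pairs the libraries, was possible and was not run. With a required difference of 2 points, mutation rose at 13, 15 and 3 positions with HIV RT, manganese and magnesium and fell at 1 with HIV RT; stops rose at 60, 44 and 51 and fell at 21, 8 and 13. With 10 points, mutation rose at 2 with HIV RT and 3 with manganese; stops rose at 8, 10 and 16 and fell at 1, 1 and 1. Asking also for 3 times the mock share left 23, 16 and 23 stop rises with HIV RT, manganese and magnesium. It left 4, 0 and 0 stop falls in the same order. A minimum of 10000 crossing reads and a Bonferroni adjustment moved no count by over 1.5 times. Pooling reads over unlisted U gave mutation differences of 1.43, 1.07 and 0.207 points and stop differences of 5.30 (HIV RT), 3.95 (manganese) and 5.85 points (magnesium). With stops read 1 nt 3′, the difference was -0.588 points at Ψ1643 with HIV RT, 1.16 at m7G1639 with manganese and -0.272 at Um1668 with manganese. Of the 36 stop differences at listed positions, 20 kept their sign with stops read 1 nt 3′ (3, at m6,6A1851, became 0) and 24 with stops read 1 nt 5′. Taken as shares of the stops in 21 nt, 30 of 36 kept their sign, while m7G1639 with HIV RT was -2.54 points and Ψ1692 had 2.21 points in manganese and 1.95 in magnesium. Counting only the most frequent wrong base, 34 of 36 mutation differences kept their sign. The cause was not tested. Depth set no limit except at position 1868, and stops beyond position 1851 were not seen.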
